A study of Mus musculus with 17 samples.

Results

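The 10 genes described here encode enzymes and helper proteins that release arachidonate, oxidise it or process the products, and they were followed through liver and hippocampus of mice fed oils rich in arachidonate or docosahexaenoate. They are Pla2g4a, Ptgs1, Ptgs2, Tbxas1, Alox5, Alox5ap, Alox12, Alox15, Lta4h and Ephx2, and every probe set annotated to 1 of these symbols alone was taken. This gave 9 probe sets of 7 genes, among 13069 probe sets and 6137 single-symbol genes on 2 oligonucleotide array types, called chip A (6 of the 9) and chip B (3 of the 9). Ptgs2 has 3 probe sets. Ptgs1, Alox5 and Alox5ap have no probe set with a single symbol and were not analysed here, so the first step of the leukotriene branch and the constitutive cyclooxygenase are not covered.

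The mice were males of the outbred stock Rj:NMRI, whose age the labels do not give. The control diet held neither test oil. In the other diets part of its medium-chain triacylglycerol oil gave way to 1.1% fungal oil, supplying 0.5% arachidonate by diet weight, to 1.9% fish oil, supplying 0.5% docosahexaenoate, or to both oils together. Diets were fed to 10 mice each until the mice were killed in the morning on day 57 or 58, and 5 mice per diet were selected. All groups shared the same base diet and the same possible short fast. From liver there were 2 RNAs of control mice and 1 for each oil diet, all on both chips. Hippocampus gave 1 RNA of each diet, of which the RNA of both oils was analysed on chip B alone, so the 17 arrays hold 9 RNAs. Nothing in the labels says whether the liver controls are separate animals or pools, so each p-value rests on a spread between RNAs that may be technical. Housing was 10 mice to a cage, and cage and day of death cannot be told apart from diet.

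Arachidonate is held in membrane phospholipids and is set free by phospholipases such as cytosolic phospholipase A2. Cyclooxygenases turn the free acid into prostaglandin H2, the parent of prostaglandins and thromboxane, whereas lipoxygenases lead to leukotrienes and hydroxy acids, and cytochrome P450 epoxygenases lead to epoxides that soluble epoxide hydrolase opens to diols. In liver the epoxygenase and hydrolase arm is known to be abundant in hepatocytes, while thromboxane synthase and the leukotriene enzymes are known from macrophages, platelets and granulocytes. In brain, cyclooxygenase-2 is known to be made by neurons.

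Values are background-subtracted intensities, scaled by the authors to a common level near 150, and some are negative. A probe set was taken as above background on an array when its intensity passed the 95th percentile of the size of that array's negative values. This limit lay between 105 and 159 in liver on chip A, 165 and 248.6 in liver on chip B, 85.5 and 143 in hippocampus on chip A, and 174 and 257 in hippocampus on chip B. Labelled sources were borne out by their markers: the summed intensity of 4 hepatocyte genes was 33085 to 42190 in liver and 222 to 270 in hippocampus, and that of 6 neuronal genes was 7202 to 7439 in hippocampus and below 0 in liver. The label names hepatocytes beside liver, but per its protocol the dissected organ was used, and 3 of 12 measured macrophage genes were above background on all liver arrays. Gapdh signal at the 3-prime end divided by that at the 5-prime end was 1.89 to 2.48 in liver and 0.840 to 0.910 in hippocampus on chip A. Its part in the tissue differences below was not tested.

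Of the 9 enzyme probe sets, 1 was above background on every liver array and 1 on every hippocampus array. In liver this was Ephx2, in hippocampus Lta4h, and Lta4h was also above the limit on 3 of 5 liver arrays. The remaining 7 were at or below the limit on all arrays of both tissues. Over all probe sets, 18.6% were above background on every liver array and 70.6% on none, and the shares in hippocampus were 24.8% and 65.1%. Most of the enzymes were therefore seen only as upper bounds, as were most probe sets of these chips. A probe set under the limit does not show that its transcript was absent.

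**Figure D1:**
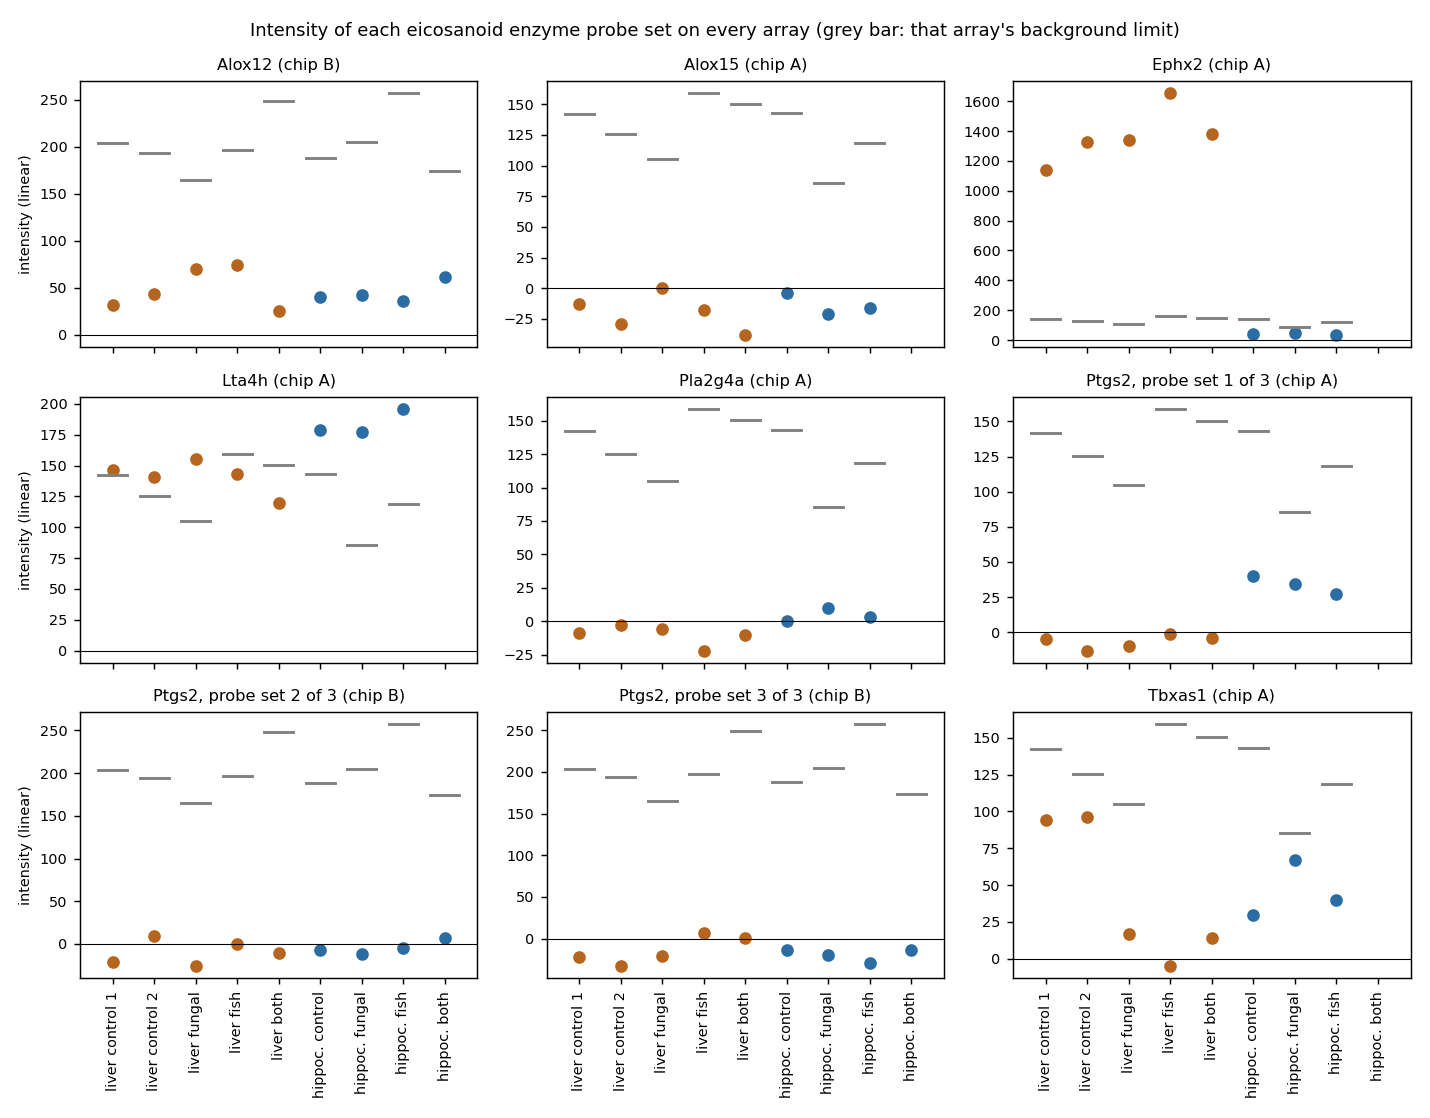
Each panel shows 1 enzyme probe set, with the linear intensity on every array (brown, liver; blue, hippocampus) and a grey bar for that array's background limit; the vertical scale differs between panels. Ephx2 stands far above the limit in liver alone, Lta4h lies near or above it in both tissues, and the other points lie under the bars.

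Soluble epoxide hydrolase, Ephx2, which hydrolyses arachidonate epoxides to diols, was the brightly measured enzyme, and it was a liver signal. Its intensity in liver was 1139 and 1327 in the controls, 1338 with fungal oil, 1654 with fish oil and 1380 with both oils. In hippocampus it was 43 in the control, 47 with fungal oil and 34 with fish oil, all under the background limit. The 5 liver arrays and the 3 hippocampus arrays did not overlap, and the share of all probe sets without overlap was not counted. Differences between the tissues were common, with 72.6% of kept probe sets at an unadjusted limma p below 0.05. Because the hippocampus side has only a bound, liver was at least 12.0-fold higher, reckoned against the hippocampus limits. The limma fit of tissue and diet gave a log2 difference of 5.08 (SE 0.17, adjusted p = 1.55e-06), whose size rests on hippocampus values under the limit. In that fit 49.9% of 6538 kept probe sets were called (limma adjusted p below 0.05 with a 2-fold or larger difference), and 1 of the 3 enzyme probe sets kept in it was called, so a tissue difference as such does not set Ephx2 apart.

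Across the liver diets Ephx2 was highest with fish oil, above both controls and both other oil RNAs. Against the control mean of 1233 ± 133 (SD, n = 2) the fish-oil value was 1.35-fold, a log2 difference of 0.43 (SE 0.13), with an unadjusted p of 0.0460 and an adjusted p of 0.439 in limma. It therefore did not pass. The differences with fungal oil (0.12, SE 0.13, adjusted p = 0.807) and with both oils (0.17, SE 0.13, adjusted p = 0.706) were smaller than the gap of 0.22 between the controls. Fungal oil minus fish oil was -0.31 on the log2 scale (SE 0.15, 95% interval -0.78 to 0.17, adjusted p = 0.603). With each array's background limit as the floor, the fish-oil difference of Ephx2 passed at an adjusted p of 0.0256, where 3.61% of all kept probe sets did, and under none of the other settings that give a test.

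Leukotriene A4 hydrolase, Lta4h, the enzyme that forms leukotriene B4, was measured in both tissues at a similar intensity. The liver values were 146 and 141 in the controls, 155 with fungal oil, 143 with fish oil and 120 with both oils. In hippocampus they were 179 in the control, 177 with fungal oil and 196 with fish oil. All 3 hippocampus values exceeded all 5 liver values, but how many of all probe sets separate in this way was not counted. The difference was small, -0.31 for liver minus hippocampus on the log2 scale (SE 0.13, 95% interval -0.63 to 0.01), and did not pass in limma (adjusted p = 0.0791). The median over all 6538 probe sets in this fit was itself -0.24. With quantile normalisation, where that median was -0.03, the Lta4h difference became 0.03, so no direction is given for it.

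No diet difference of Lta4h in liver passed. The log2 differences from control were 0.11 with fungal oil (SE 0.17, 95% interval -0.41 to 0.64), -0.005 with fish oil (-0.53 to 0.52) and -0.26 with both oils (-0.78 to 0.27), with limma adjusted p from 0.658 to 0.994. The lowest liver value, 120 with both oils, was on an array whose background limit was higher than that value. In hippocampus, where each diet has 1 RNA and no test can be made, the log2 ratios to control were -0.02 with fungal oil and 0.13 with fish oil.

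Arachidonate 12-lipoxygenase, Alox12, known chiefly from platelets and skin, was kept in the fits because its mean passed the median of the dim chip B, although no array was above the background limit. Its liver intensities were 32 and 44 in the controls, 70 with fungal oil, 74 with fish oil and 25 with both oils, and its hippocampus intensities were 40, 42, 36 and 62 in the order control, fungal, fish and both. The single-oil livers read above both controls and the liver of both oils below them. None of these differences passed in limma (0.90 with fungal oil, 0.98 with fish oil, -0.59 with both oils, SE 0.56 each, adjusted p from 0.601 to 0.740). They are differences between values under the limit and not measured folds. Liver minus hippocampus was 0.10 (SE 0.40, adjusted p = 0.829). With the background limit as the floor, each Alox12 liver value becomes the limit of its array. The diet directions reversed there, but they are directions of the limits and carry no information on Alox12. Alox12 was the only kept enzyme with a range of 1 or more on the log2 scale over the liver arrays (1.57). Among 1184 single-symbol probe sets of chip B, the profiles nearest to it over the 5 liver arrays were those of Gpc4, Npy4r and Gorasp2, with root mean square differences of 0.27, 0.29 and 0.30. These are equally dim, with Gpc4 at 31 and 42 in the controls and 50, 51 and 28 in the oil livers.

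Across the 3 enzyme probe sets kept in the liver fit, 0 were called for any diet contrast, as were 0 of 6537 probe sets overall (0% for fungal oil, 0% for fish oil, 0% for both oils, 0% for fungal against fish oil). At an unadjusted p under 0.05, limma gave 599, 724, 647 and 588 probe sets in these contrasts, and the enzymes among them were 0, 1 (Ephx2), 0 and 0. With no filter on dim probe sets limma called 328, 395, 341 and 609 of 13069, of which 0 were enzyme probe sets. In simulated data of this design, the liver fit recovered 120 of 200 changed probe sets at a log2 change of 1 and 179 of 200 at a change of 2. The simulated spread followed intensity alone, which real probe sets need not do. These recoveries are therefore not the power of the fit on the deposited data. The 3 diet contrasts share the same controls and are not independent of each other.

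**Figure D2:**
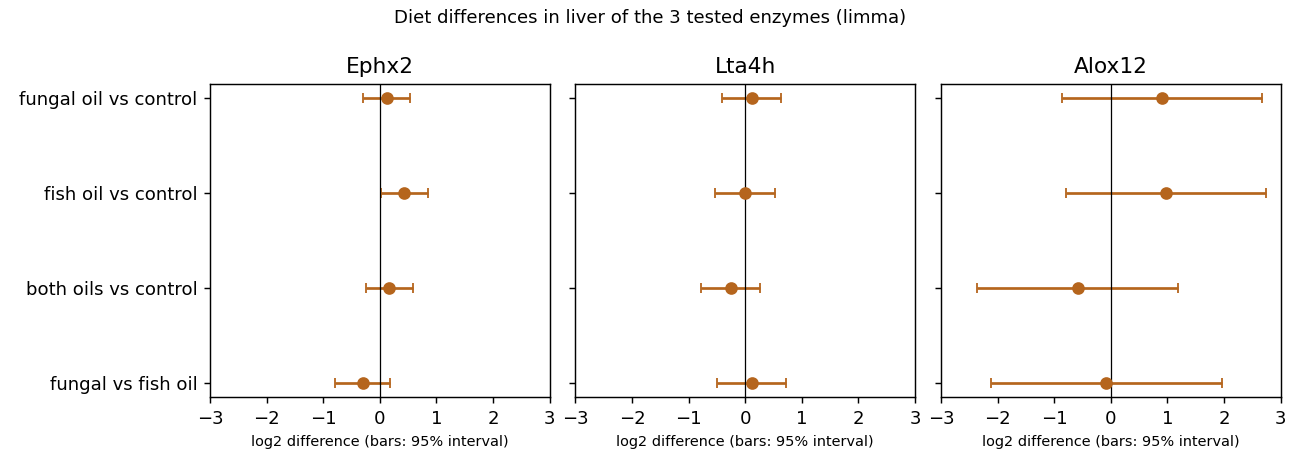
Log2 differences between liver diets for the 3 enzymes kept in the fit, with the 95% interval of limma as horizontal bars; the 4 rows of each panel are the diet contrasts. The Ephx2 interval with fish oil lies just above 0 (0.01 to 0.84), all others include 0, and the intervals of the dim Alox12 are the widest.

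Thromboxane synthase, Tbxas1, which makes thromboxane A2 from prostaglandin H2, read lower in the 3 oil livers than in either control, at values under the background limit. Its intensity was 94 and 96 in the controls, 17 with fungal oil, -5 with fish oil and 14 with both oils. In hippocampus it read 30 in the control, 67 with fungal oil and 40 with fish oil, so there the oil RNAs read above the control. All of these values lay under the background limit of their arrays, and with a laxer limit, the 90th percentile, 1 liver array, a control, and 1 hippocampus array passed. No fold change is given for this reason, and the test that follows compares values under the limit.

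The Tbxas1 probe set was too dim to be kept in the liver fit. In the limma fit without a filter, with values under 15 set to 15, the unadjusted p was 0.00808 with fungal oil, 0.00719 with fish oil and 0.00719 with both oils, and the adjusted p was 0.221, 0.179 and 0.204, so it did not pass. With the background limit as the floor, each Tbxas1 liver value becomes the limit of its array. The direction turned there with fish oil and with both oils, but it is that of the limits and carries no information on Tbxas1. By the rule of at least 2-fold below each control, applied to probe sets with both controls at 30 or more, Tbxas1 met it with each oil diet and was 1 of the 4 enzyme probe sets that could. Over all such probe sets 5.77% met it with fungal oil, 6.42% with fish oil and 5.19% with both oils.

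Genes of macrophages, a known source of thromboxane synthase, also read low in the oil livers, with no test. Of 12 measured macrophage and Kupffer cell genes, 11 read below both controls with fungal oil, 10 with fish oil and 8 with both oils, where 37.5%, 36.6% and 32.1% of the 6537 kept probe sets did. Their summed intensity, with the brightest probe set of each gene, was 2989 and 2924 in the controls, 2134 with fungal oil, 1919 with fish oil and 2190 with both oils. In hippocampus the sum was 2266, 2292 and 2259. Mpeg1, the brightest gene of the liver sum, read 705 and 802 in the controls and 657, 211 and 529 in the oil livers. Its dimmer probe set, under the background limit, read 36 and 47, then 14, 41 and 25. The chip A probe set of C1qb, not in the sum, read 131 and 161, then 53, 134 and 134. Clec4f, a lectin of Kupffer cells, read 180 and 254 in the control livers and 132, 90 and 93 in the oil livers in the order fungal, fish and both. Of the macrophage receptor genes, Adgre1, Csf1r and Marco were above background on no liver array, and C1qa, a complement gene of macrophages, was also on none. Lyz2 and Cd14 read above both controls with fish oil. Low readings were not particular to macrophages. Of 4 measured endothelial genes, 3 read below both controls with fungal oil, 4 with fish oil and 3 with both oils. With both oils 1 endothelial gene read above both controls, and 1 of the 4 was above background on all liver arrays. In bulk tissue, fewer cells of a type and less RNA per cell cannot be told apart, and the part of macrophages in the Tbxas1 values was not tested.

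**Figure D3:**
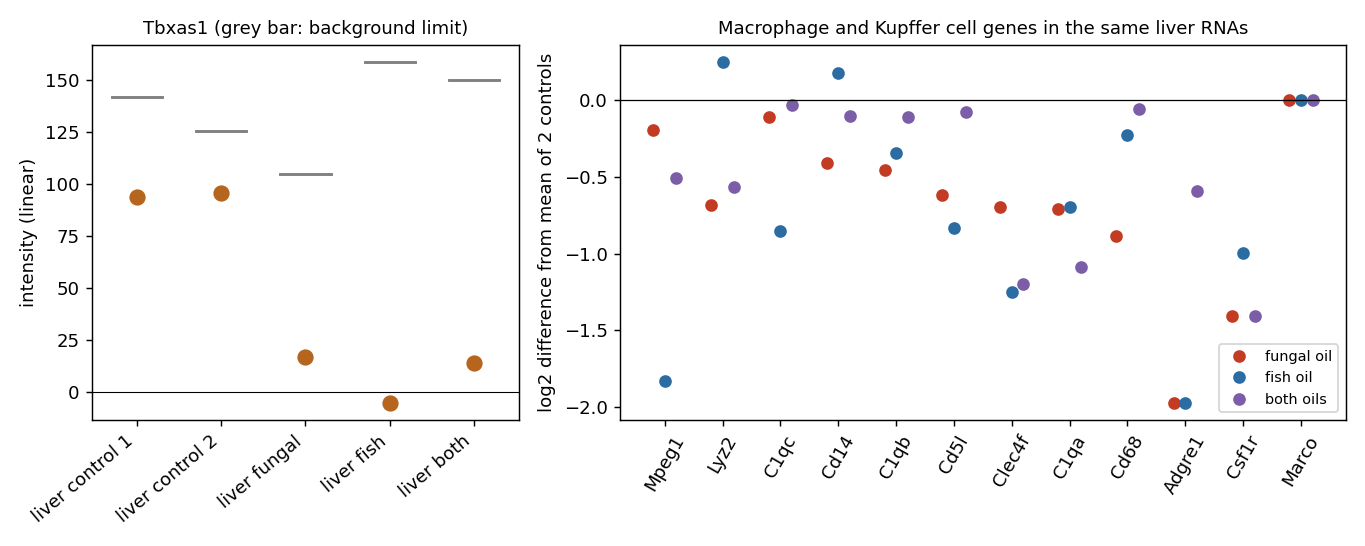
Left, the linear intensity of Tbxas1 in each liver RNA with the array's background limit as a grey bar; right, log2 differences of 12 macrophage and Kupffer cell genes from the mean of the 2 control livers, with values under 15 set to 15. Tbxas1 reads 94 and 96 in the controls and between -5 and 17 in the oil livers, under the limit on every array, and most macrophage points lie below 0.

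Platelets are the other known source of thromboxane synthase, and 1 of 8 listed platelet genes was measured. Gp5, a subunit of the platelet von Willebrand factor receptor, read 46 and 56 in the control livers and 4, 12 and 32 in the oil livers, under the background limit throughout. The 9 measured neutrophil and eosinophil genes summed to 290 and 349 in the controls and 180, 403 and 298 in the oil livers, so they had no common direction. Whether blood left in the tissue bears on Tbxas1 was not tested.

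Prostaglandin-endoperoxide synthase 2, Ptgs2, the inducible cyclooxygenase, was at background in both tissues on all 3 of its probe sets. On chip A it read -13 to -1 on the liver arrays and 40, 34 and 27 in hippocampus of control, fungal-oil and fish-oil mice, with hippocampus above liver. The probe sets on chip B did not show that order: one read -26 to 9 in liver and -12 to 7 in hippocampus, the other -33 to 7 and -29 to -14. Without a filter on dim probe sets, limma called the chip A probe set lower in liver (adjusted p = 0.00424), as it called 29.5% of 13069 probe sets one way or the other. All liver values in that comparison are the floor itself, and the hippocampus values are under the limits of their arrays, so no fold is given.

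Cytosolic phospholipase A2, Pla2g4a, which frees arachidonate from membranes, read -22 to -3 in liver and 0 to 10 in hippocampus. Alox15, the 12/15-lipoxygenase, read -38 to 0 in liver and -21 to -4 in hippocampus. Both were under the floor of 15 on every array, so neither tissue nor diet could be compared, and their levels are known here only as lying under the background limit.

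In hippocampus no enzyme reached a 2-fold difference between an oil diet and control among probe sets above background on at least 1 of the arrays compared. Lta4h was the 1 enzyme probe set that could be judged with fungal oil and with fish oil, and 0 met the rule with either. Over all probe sets 3.18% did so with fungal oil and 2.62% with fish oil. With both oils, on chip B, 2.25% did so and 0 enzyme probe sets could be judged. These are descriptions of single RNAs.

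Whether the diet differences themselves differed between the tissues was tested by an interaction in limma, added after the values had been seen. In the filtered fit 0 of 3 enzyme probe sets passed for any oil diet. The liver effect of fish oil on Ephx2 minus that in hippocampus, where its values are under the limit, was 0.77 (SE 0.23, adjusted p = 0.438). The gaps of Alox12, under the limit in both tissues, were wider, at 0.83 with fungal oil, 1.13 with fish oil and -1.22 with both oils (adjusted p from 0.530 to 0.647). Without the filter, Tbxas1 and the chip A probe set of Ptgs2 passed for fungal oil and for fish oil, the 2 diets tested on chip A, against 7.17% and 7.51% of all 13069 probe sets. Both lie under the background limits, and the liver values of Ptgs2 are all at the floor, which leaves the test almost no spread to work with.

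The wider pathway around these enzymes was described with a list of 77 genes, of which 34 were measured on 41 probe sets. In liver 10 of the 41 were above background on every array, and in hippocampus 7. Of 17 probe sets kept in the tissue fit, 6 were higher in liver and 3 higher in hippocampus, against 49.9% called over all probe sets. The liver fit also kept 17, not all of them the same. Among them, Cyp4a14 read below 0 in both controls and passed the intensity filter through the oil livers, where it is high. The list was chosen with earlier results of these data known, so the medians that follow are not a test of the pathway. The median difference of the 17 from control was 0.22 with fungal oil, 0.26 with fish oil and 0.26 with both oils. Over all kept probe sets it was -0.01, 0.01 and 0.05, and 0 of 17 were called with any diet.

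**Figure D4:**
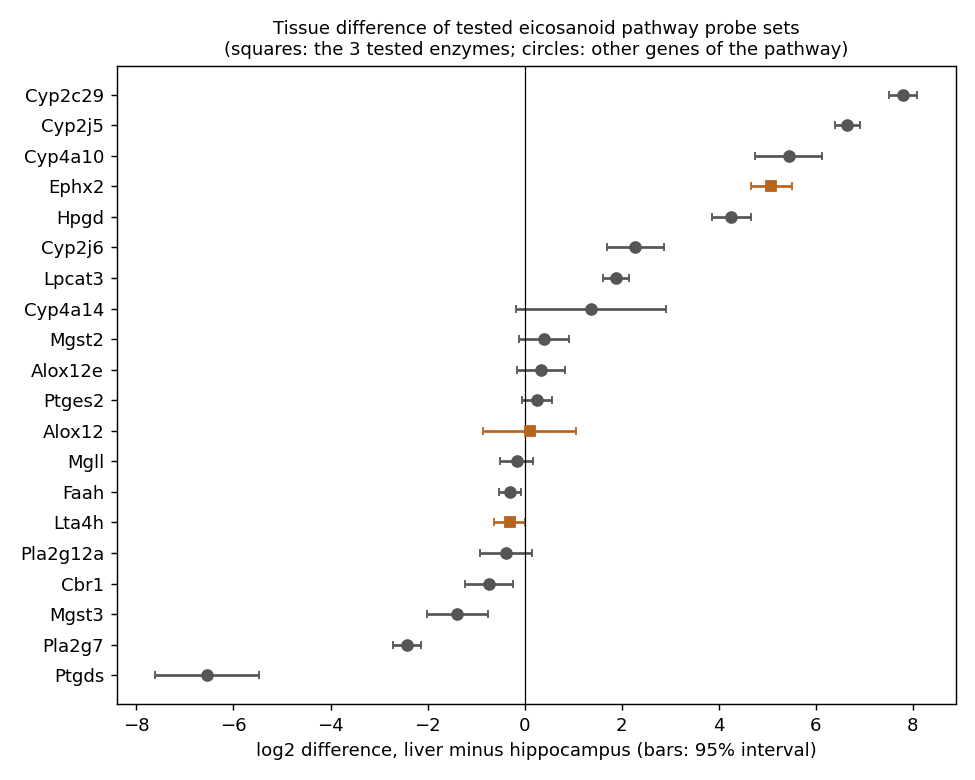
Log2 difference of liver minus hippocampus with its 95% interval for each pathway probe set kept in the tissue fit; squares are the 3 enzymes and circles the other genes. Ephx2 at 5.08 stands with the epoxygenases Cyp2c29 and Cyp2j5 and with Cyp4a10 on the liver side, Ptgds stands far on the hippocampus side, and Lta4h and Alox12 lie near 0. A difference against a tissue under the background limit is not a measured fold.

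The genes that act just before Ephx2 shared its tissue. All 3 measured epoxygenases, the P450 enzymes that form the epoxides, were above background on every liver array and on no hippocampus array. All 3 were called higher in liver by limma, in a fit that called 49.9% of all kept probe sets. Cyp2c29 read 5191 and 4996 in the control livers, 6559 with fungal oil, 7384 with fish oil and 6107 with both oils, and 19 to 41 in hippocampus, which made liver at least 52.9-fold higher (adjusted p = 6.68e-08). Cyp2j5 was at least 13.2-fold higher in liver, with 1403 to 1690 there and below 0 in hippocampus. Cyp2j6 read 170 to 225 in liver and 30 to 52 in hippocampus, at least 1.75-fold higher. With the background limit as the floor its log2 difference was 0.76, less than the 2-fold needed for a call. With fish oil the 3 epoxygenases had log2 differences from control of 0.54 (Cyp2c29, SE 0.06), 0.26 (Cyp2j5, SE 0.08) and 0.29 (Cyp2j6, SE 0.17), beside 0.43 for Ephx2. Their unadjusted p was 0.00279, 0.0411 and 0.179, and none passed after adjustment in limma (adjusted p = 0.375, 0.439 and 0.603).

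The omega-hydroxylases, P450 enzymes that oxidise the far end of fatty acids including arachidonate, were measured on 4 probe sets of 2 genes. Cyp4a10 read 321 and 349 in the control livers, 894 with fungal oil, 1566 with fish oil and 1010 with both oils on 1 of its 2 probe sets, while the other was at background. Its limma adjusted p was 0.505, 0.375 and 0.389, but 0.0249, 0.00811 and 0.0138 when the test was limited to the brightest probe sets, from the 75th percentile up. That limited test called 26, 39 and 37 of 3269 probe sets with fungal oil, fish oil and both oils. Cyp4a10 also passed with the background limit as the floor, where 3.26%, 3.61% and 32.9% of all kept probe sets did. It did not pass with quantile normalisation, other fixed floors, no filter, no trend or additive oils. In the additive fit its difference with fungal oil was 0.54 (SE 0.38), against 1.42 in the main fit. Cyp4a14 read -10 and -5 in the controls and 160, 385 and 51 in the oil livers, above background with fish oil alone (adjusted p = 0.375). Its other probe set read -3 and 8 in the controls and 24, 29 and 23 in the oil livers, at background throughout.

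Among prostanoid genes, 1 of 3 tested synthase probe sets was called higher in hippocampus and the 1 tested breakdown probe set higher in liver. Over all kept probe sets 49.9% were called in the tissue fit. Ptgds, which makes prostaglandin D2, was above background on hippocampus arrays alone, with 624 in the control, 3118 with fungal oil and 1843 with fish oil against -155 to -79 in liver, at least 11.3-fold higher in hippocampus (adjusted p = 3.04e-05). Choroid plexus and meninges are known sources of Ptgds, and 4 other genes of those tissues (Ttr, Igf2, Kl and Folr1) summed to 765, 1555 and 668 in the same order of hippocampus RNAs. Their part in the Ptgds values was not tested. Hpgd, which inactivates prostaglandins, read 243 to 300 in liver and below 0 in hippocampus, at least 2.41-fold higher in liver (adjusted p = 2.57e-06). Cbr1 and Ptges2, which act on prostaglandin E2 and H2, differed by less than 2-fold between tissues. The 7 measured prostanoid receptors, among them the thromboxane receptor Tbxa2r, were above background on no array of either tissue.

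Release and reacylation genes complete the list. Pla2g7, which hydrolyses platelet-activating factor and oxidised phospholipids, read 612 to 931 in hippocampus and 114 to 176 in liver, where 1 of 5 arrays was above background (-2.42, SE 0.12, adjusted p = 2.93e-06). With the background limit as the floor the log2 difference of Pla2g7 was -1.91. Lpcat3, which returns arachidonate to phospholipids, read 371 to 421 in liver and 97 to 114 in hippocampus, where 1 of 3 arrays was above background (1.88, SE 0.11, adjusted p = 1.85e-05, and 1.71 with the background limit as the floor). Faah and Mgll, which free arachidonate from endocannabinoids, were above background on all arrays of both tissues and differed by less than 2-fold. In the later leukotriene steps Mgst3 was higher in hippocampus on 1 of 3 probe sets, at 227 to 256 against 58 to 122, at least 1.76-fold, and Ltc4s was under the limit on all arrays. With the background limit as the floor the log2 difference of Mgst3 was -0.85, less than the 2-fold needed for a call. The measured lipoxygenases beside Alox12 and Alox15, Alox8 and Alox12e, were under the limit as well.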

How the data were processed

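The authors deposited whole-number intensities, background-subtracted, 1 for each probe set on each array. Software, background method and genome build: not given in the sources used here, so no coordinates are printed. After trimming 2% at each end, array means lay between 148 and 150.5, and arrays were used as deposited, or scaled to 150 for the comparison of tissues. Tests left out the 55 control probe sets of each chip. Intensities under a floor of 15 (0.1 of the trimmed mean) were set to it and log2 was taken. In the tissue fit the floor was applied after the scaling, elsewhere to the deposited intensities.

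Names came from the platform annotation (5541 of 6529 on chip A and 2001 of 6540 on chip B have 1 symbol), and updating symbols through gene identifiers changed 0. Array titles and descriptions gave the groups. The members, lists and tests were chosen with earlier results of these data known. Named beside the enzymes were pathway list genes called, or at least 2-fold from each control and above background, others by role, and the 3 nearest profiles of an enzyme ranging over at least 1 log2 unit in liver.

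Fits used limma 3.58.1 in R 4.3.3 (lmFit, eBayes with an intensity trend, per chip), on probe sets at or above their chip's median intensity, with Benjamini-Hochberg adjustment over both chips. The liver fit had 4 diet groups and 1 residual degree of freedom, with prior degrees of freedom of 2.17 and 2.05, which takes the spread of the controls for every oil RNA. The tissue fit had tissue and diet terms with 3 and 4 residual degrees of freedom. Hippocampus diets, with 1 RNA each, had no test. A bound (at least N-fold) sets the bright tissue's mean log2 intensity against the other tissue's background limits. Both fits were tested on simulated data, in which the tissue fit recovered 196 of 200 probe sets changed by 1 log2 unit. Recovery there meant an adjusted p below 0.05 alone. The 2-fold rule of the tissue calls was not applied, so this is not the recovery of those calls. Simulated spread was a smooth function of intensity, so the recoveries do not give the power on the deposited data. Figures used matplotlib 3.10.9. Alternatives were quantile normalisation, 3 other floors, 2 other filters, no trend, additive oils, leaving out each control, tissue alone and 3 other background limits. The number of arrays limits the precision.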

Additional observations from a re-analysis of the deposited data

Results flagged for a closer look

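A diet effect differing between the tissues passed for 2 enzymes in the limma interaction fit without a filter on dim probe sets, which was added after seeing the data. Over all 13069 probe sets, 7.17% passed there for fungal oil and 7.51% for fish oil. For Tbxas1 the effect of fungal oil in liver minus that in hippocampus was -3.64 on the log2 scale (adjusted p = 0.0360), and that of fish oil was -3.10 (adjusted p = 0.0434). For the chip A probe set of Ptgs2 the gap was 0.24 with fungal oil (adjusted p = 0.0316) and 0.57 with fish oil (adjusted p = 0.00972). These are differences of values under the background limits and not measured folds. All Tbxas1 values lie under the background limits, and its fish-oil and both-oil livers are at the floor. The liver values of Ptgs2 are all at the floor, so its standard error of 0.005 measures no spread between livers. Neither probe set was kept in the filtered fit, and each oil diet has 1 RNA per tissue.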

How the results depend on the processing

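With each array's background limit as the floor, 1 of 3 enzymes passed with fish oil (Ephx2, 0.43, adjusted p = 0.0256), where 3.61% of all probe sets did, and 1 of 3 with both oils (Alox12, 0.32, adjusted p = 0.0221), where 32.9% did. That floor differs between arrays, so a probe set under it takes the difference of the limits, and the median over all probe sets became -0.27 with fungal oil and 0.17 with both oils. It also turned Alox12 to -0.27 with fungal oil and -0.013 with fish oil, Lta4h to 0.15 with fish oil, 0.067 with both oils and -0.037 for fungal against fish oil, and Tbxas1 to 0.25 with fish oil and 0.17 with both oils. In the fit of additive oils, Alox12 was -0.16 with fungal oil and -0.077 with fish oil, Lta4h -0.045 and Ephx2 -0.042 with fungal oil. Lta4h with fish oil, -0.005, became 0.016 with quantile normalisation and ranged from -0.030 to 0.020 on leaving out either liver control, and its tissue difference became 0.030 with quantile normalisation. The cause was not tested. With no filter, 2 of 9 enzyme probe sets were called between tissues, where 29.5% of all were, and 4 interactions passed. A 90th percentile limit put 2 probe sets above background in liver, a 99th percentile limit put 0 in hippocampus, and the floor as the limit put 3 in liver and 5 in hippocampus. Over the settings run, 255 values of single genes and 44 counts kept their direction and their side of the threshold, or stayed within the spread. Of the single-gene values 15 reversed, 6 moved, 7 newly passed and 2 no longer passed, and 7 counts moved. Some values could not change: leaving out a control cannot alter fungal against fish oil, and a filter or trend setting cannot alter a log2 difference. The unchanged totals therefore do not measure robustness. Leaving out a control leaves the liver fit without residual degrees of freedom, so only values are given there. Signal over background limits all enzymes but Ephx2.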
